A study of Homo sapiens with 5 samples.

Results

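A set of 10 secreted defence proteins were followed at the mRNA level in cultured prostate cancer cells: the acute phase proteins LCN2, SAA1, SAA2, ORM1 and SERPINA3, the WAP domain proteins PI3, SLPI and WFDC2, and the complement proteins C3 and CFB. They were taken as every probe whose symbol in the array's platform table is 1 of these 10 genes, out of 20044 named genes and 47306 probes. The 10 genes had 13 probes, and detection means that the scanner software gave a p below 0.01 against its negative controls. At least 1 probe was detected on at least 1 array for 8 of the genes, and 10 of the 13 probes were. No probe of WFDC2 or C3 was detected on any array. The genes were chosen by their known roles with the log2 differences between these same 5 arrays already in view, so the values are a description and carry no test.

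The study concerned FOXA1, a transcription factor that opens chromatin in luminal prostate epithelium, and TGF-beta signalling. LNCaP is an androgen-responsive human prostate cancer line. LNRII was made from it with a lentivirus that carries TGFBR2, a TGF-beta receptor, behind a CMV promoter, and puromycin selection. Whether LNRII is 1 clone or a pool is not given. The arrays were LNRII with vehicle for 3 days, LNRII with TGFB3 at 5 ng/ml for 3 days, LNCaP with a control hairpin (shCtr), LNCaP with a hairpin against FOXA1 (shFOXA1), and LNCaP with shFOXA1 plus LY2157299 at 10 µM for 3 days. The LNCaP arrays are labelled day 10, and the hairpins also came by lentivirus with puromycin selection. LY2157299 (galunisertib) blocks the kinase of the type I TGF-beta receptor. The labels do not say for each array whether the shCtr and shFOXA1 cultures received vehicle. All 5 cultures are labelled WT. There was 1 culture and 1 array per group, so no difference below has a replicate check and no p-value between conditions can be given.

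Acute phase proteins are plasma and mucosal proteins whose synthesis climbs during inflammation, classically in the liver under interleukin-6 and interleukin-1 through STAT3, C/EBP and NF-kB factors. Epithelia make many of them locally. Antiproteases of the WAP domain family and the serpins protect tissue from the proteases that neutrophils release, and complement tags microbes for uptake or lysis.

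Between 32.3% (LNRII control) and 38.1% (shFOXA1) of probes were detected. FOXA1 read log2 11.82 with shCtr, 11.26 with shFOXA1 and 11.30 with shFOXA1 plus LY2157299, and 11.81 and 11.92 on the LNRII arrays without and with TGFB3. The 3 TGFBR2 probes were undetected on both LNRII arrays and with shCtr. Of these, 2 were detected near the floor on the knockdown arrays, at 4.89 and 4.76 with shFOXA1 and at 4.72 and 5.01 with LY2157299 added. The receptor thus read above background in the LNCaP knockdown cultures and not in the line made to carry it, and whether the probes match the part carried by the virus was not tested. Luminal prostate markers were present, with 8 of 8 named genes detected on every array. Of 8 leukocyte markers, CD68 was detected on every array and CD14 on the array with LY2157299, while PTPRC, MPO and ELANE were detected on no array. Of 8 hepatocyte markers, 1 (LNRII control) to 3 (each LNCaP array) were detected. Of 3 named basal markers, DSC3 was detected on every array and KRT14 on the LNCaP arrays. Fibroblast markers were limited to COL1A1, on the TGFB3 and the shFOXA1 arrays. The levels that follow are background-corrected, quantile-normalized log2 intensities. The lowest detected level, the floor, was 5.03 on the LNRII control array and 4.67 to 4.72 on the others. A difference against an undetected level was taken from that array's floor and is given as "at least". The only error available is the disagreement between probes of 1 gene, which covers measurement and not the spread between cultures. As an SD of a log2 difference, this disagreement came to 0.22 with TGFB3 and to 0.17 after knockdown. It was 0.15 when LY2157299 was compared with shFOXA1 alone, 0.18 when it was compared with shCtr, and 0.27 between the untreated lines.

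Promoter sequences are shown for members that lay at least 2-fold higher after FOXA1 knockdown (LCN2, SERPINA3, CFB) and for ORM1, which did not. They come from RefSeq on GRCh38.p14, plus strand, from 250 bases before to 50 bases after the gene's start. The table held windows for 5 of the 10 members (the fifth is WFDC2). The windows are chr9:128149203-128149502 for LCN2, chr14:94612141-94612440 for SERPINA3, chr6:31945845-31946144 for CFB and chr9:114322848-114323147 for ORM1. Capitals mark matches, on either strand, to the NF-kB consensus or to the motifs TTCNNNGAA (STAT), TTGCNNAA (C/EBP), TGTTTAC and TATTTAC (FOXA), TGANTCA (AP-1), GTCTAGAC (SMAD) and TATAAA (core promoter box).
LCN2: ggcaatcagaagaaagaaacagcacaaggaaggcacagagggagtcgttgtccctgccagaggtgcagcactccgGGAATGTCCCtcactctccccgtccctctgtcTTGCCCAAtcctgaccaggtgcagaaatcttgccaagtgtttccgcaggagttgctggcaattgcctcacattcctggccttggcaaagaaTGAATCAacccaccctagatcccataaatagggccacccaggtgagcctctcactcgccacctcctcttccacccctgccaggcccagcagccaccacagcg
SERPINA3: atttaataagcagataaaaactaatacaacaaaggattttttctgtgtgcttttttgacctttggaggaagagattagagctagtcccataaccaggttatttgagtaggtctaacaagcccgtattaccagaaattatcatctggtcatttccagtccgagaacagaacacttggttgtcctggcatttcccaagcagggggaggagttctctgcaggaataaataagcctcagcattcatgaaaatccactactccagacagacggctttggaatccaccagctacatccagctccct
CFB: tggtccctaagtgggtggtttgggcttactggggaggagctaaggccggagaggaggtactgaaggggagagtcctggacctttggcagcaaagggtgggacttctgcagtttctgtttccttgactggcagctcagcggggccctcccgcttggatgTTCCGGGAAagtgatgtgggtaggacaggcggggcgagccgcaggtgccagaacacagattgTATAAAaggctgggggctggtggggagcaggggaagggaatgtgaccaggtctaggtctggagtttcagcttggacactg
ORM1: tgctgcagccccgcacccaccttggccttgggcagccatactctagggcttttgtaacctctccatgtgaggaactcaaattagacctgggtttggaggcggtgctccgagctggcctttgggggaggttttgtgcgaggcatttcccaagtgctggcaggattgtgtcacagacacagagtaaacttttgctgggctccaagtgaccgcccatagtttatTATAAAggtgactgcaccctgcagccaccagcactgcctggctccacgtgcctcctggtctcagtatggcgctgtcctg

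The LCN2 window held an NF-kB match at bases -175 to -166 from the start, a C/EBP match at -143 to -136 and an AP-1 match at -52 to -46, and none of them overlap. The CFB window held a STAT match at -92 to -84 and a TATA match at -30 to -25, and the ORM1 window a TATA match at -29 to -24. No searched motif was found in the SERPINA3 or WFDC2 windows. Neither FOXA motif nor the SMAD motif was found in any of the 5 windows. Of 35116 windows of this length in the table, 5.91% held the NF-kB consensus, 7.66% the STAT motif, 10.5% the C/EBP motif, 3.42% and 2.67% the FOXA motifs in the order above, 7.71% the AP-1 motif, 0.202% the SMAD motif and 11.5% the TATA motif. A match describes letters in the window and does not show that a factor binds there.

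LCN2 encodes lipocalin 2, which starves bacteria of iron by binding their siderophores. Its log2 level was 7.68 in LNRII with vehicle, 7.02 in LNRII with TGFB3, 6.90 in LNCaP with shCtr, 9.03 with shFOXA1 and 9.84 with shFOXA1 plus LY2157299. It was detected on all 5 arrays, the knockdown arrays stood above the other 3, and the inhibitor array was the highest. The deposited intensities of its probe, before any correction, were 256.2, 218.1, 199.9, 567.7 and 956.8 in the same order. The level with shFOXA1 was 4.37-fold that with shCtr, the level with LY2157299 added was 7.66-fold that with shCtr, and both are many times the disagreement between probes. LY2157299 against shFOXA1 stood at 0.81 log2, short of 2-fold and the 11th highest of 11002 measured genes. With TGFB3 the difference was -0.66. The LNRII array with TGFB3 and the shCtr array differed by 0.12, less than the probe SD of that pair.

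**Figure D1:**
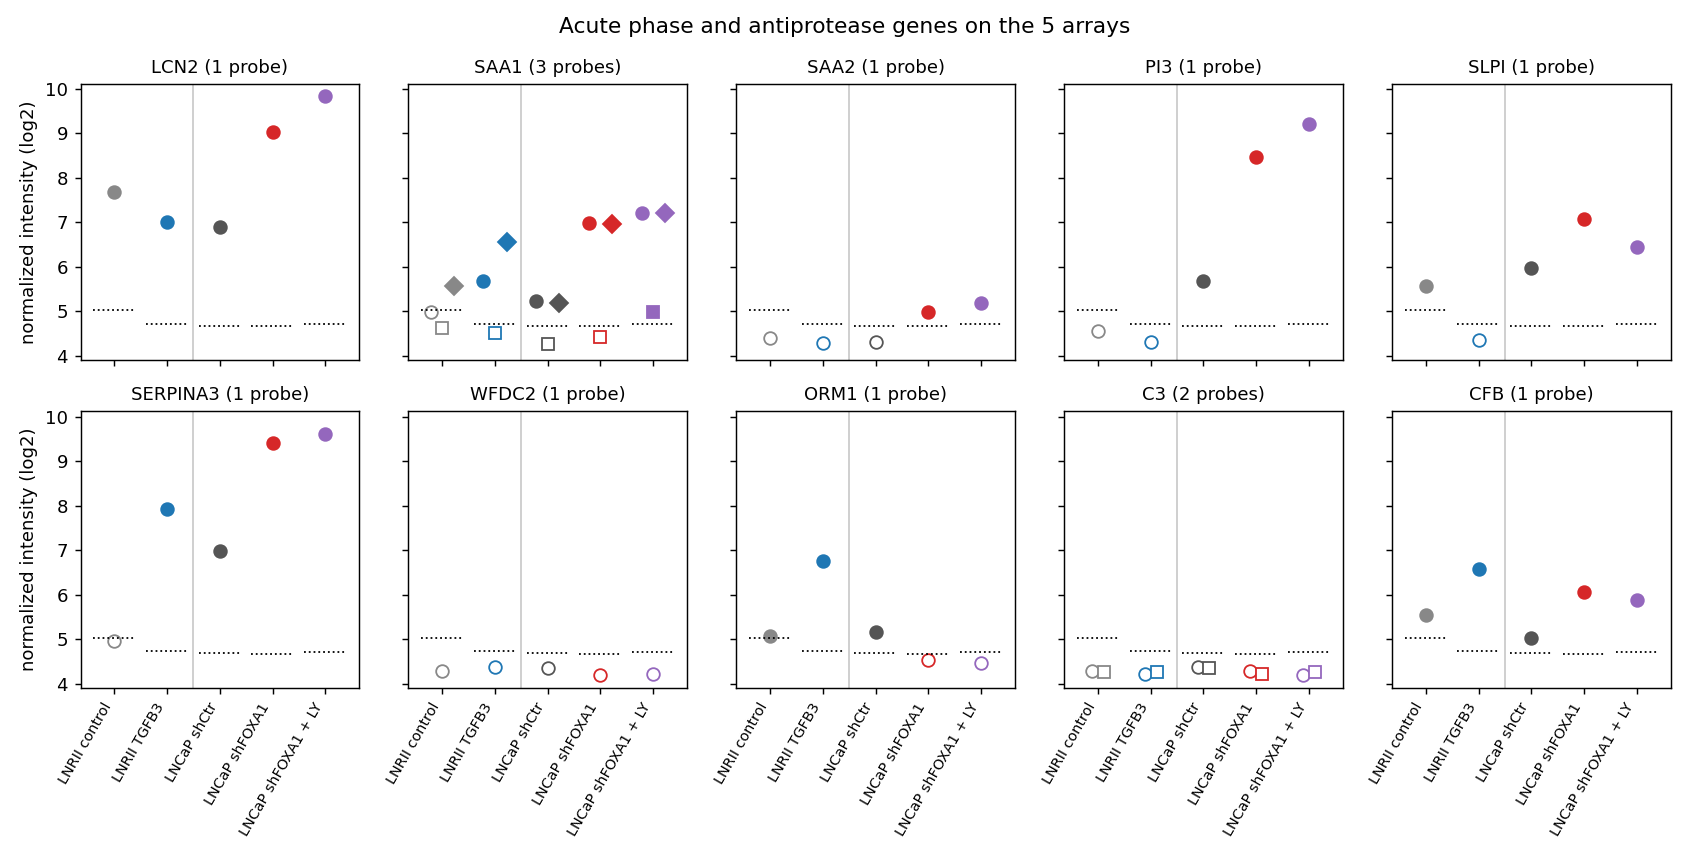
Normalized log2 intensity of each probe of the 10 genes on the 5 arrays. Filled symbols are detected (p below 0.01), open symbols are not, symbol shapes separate probes of 1 gene, and dotted lines give each array's detection floor. LCN2, PI3 and SERPINA3 are highest on the 2 knockdown arrays, ORM1 is highest with TGFB3, and WFDC2 and C3 lie below the floor on every array.

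SAA1 and SAA2 encode serum amyloid A, a small apolipoprotein of inflammation. The proteins and transcripts of this pair are closely related, so a probe may read both and the values of either gene alone are uncertain. The brightest SAA1 probe read 5.57 in LNRII with vehicle, 6.57 with TGFB3, 5.20 with shCtr, 6.97 with shFOXA1 and 7.21 with LY2157299 added. A second SAA1 probe read 4.98 (not detected), 5.69, 5.24, 6.99 and 7.20 in that order. Both probes were thus lowest on the untreated or control hairpin arrays of their line and highest on the knockdown arrays. After knockdown the brightest probe gave 3.40-fold and the second probe 3.38-fold. With TGFB3 the brightest probe gave 2.00-fold, right at the threshold, and the second probe a measured difference of 0.71 log2. The third SAA1 probe was detected only with LY2157299, at 4.98. The SAA2 probe was not detected on either LNRII array or with shCtr. It read 5.00 with shFOXA1 and 5.19 with LY2157299 added, near the floor, and the knockdown level was at least 1.25-fold that with shCtr.

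ORM1 encodes orosomucoid, an abundant plasma glycoprotein that carries drugs and lipids. Its level was 5.08 in LNRII with vehicle, 6.75 with TGFB3 and 5.16 with shCtr, and it was not detected with shFOXA1 (4.53) or with LY2157299 added (4.48). The TGFB3 array was the highest and the only one more than 1 log2 unit above its floor. The difference with TGFB3 was 3.17-fold, the 56th highest of 10711 genes, and the vehicle level it starts from lay just above the floor. Knockdown against shCtr stood at -0.48 or lower, the opposite side from the other detected members. ORM2, a close relative not among the 10 genes, read 4.92 (not detected), 6.16, 5.44, 4.66 (not detected) and 4.65 (not detected) over the same arrays. These relatives have closely similar sequences, so their probes may not be separate readings.

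SERPINA3 encodes antichymotrypsin, a serpin that blocks cathepsin G and chymase. Its level was 4.95 in LNRII with vehicle, where it was not detected, 7.92 with TGFB3, 6.97 with shCtr, 9.41 with shFOXA1 and 9.62 with LY2157299 added. Over the 5 arrays its levels spanned 4.67 log2, the 7th widest range of 11808 genes. It was at least 7.42-fold higher with TGFB3 and 5.42-fold higher with shFOXA1, ranking 6th of 10711 and 10th of 11132 genes from the top. LY2157299 against shFOXA1 stood at 0.21, little more than the probe SD. The untreated arrays of the lines differed as well, with LNRII vehicle at least 3.84-fold below LNCaP shCtr. The shCtr level was closer to LNRII with TGFB3 than to LNRII with vehicle. With 1 culture per group, a vehicle culture that stands apart and an effect of TGFB3 cannot be told apart for any member.

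PI3 encodes elafin, which inhibits neutrophil elastase and proteinase 3 and is anchored to the matrix by transglutaminase. It was not detected on either LNRII array (4.57 and 4.31) and read 5.69 with shCtr, 8.47 with shFOXA1 and 9.21 with LY2157299 added. The deposited intensities on the LNCaP arrays were 126.8, 411.7 and 643.5. All 3 LNCaP arrays were detected, in rising order from shCtr to the inhibitor array, and the range of 4.89 log2 was the 6th widest of 11808 genes. Knockdown stood 6.87-fold above shCtr, the third highest difference of 11132 genes. With LY2157299 added the level was 11.5-fold that with shCtr, the highest of 11019 genes. LY2157299 against shFOXA1 stood at 0.74, the 18th highest of 11002 genes.

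SLPI, the secretory leukocyte protease inhibitor, blocks elastase and cathepsin G in mucosal fluids. Its level was 5.57 in LNRII with vehicle, 4.35 with TGFB3 (not detected), 5.97 with shCtr, 7.08 with shFOXA1 and 6.45 with LY2157299 added. The inhibitor array lay between shCtr and shFOXA1, unlike for LCN2, PI3, SAA1 and SERPINA3, where it was the highest. Knockdown gave 2.16-fold, LY2157299 against shFOXA1 stood at -0.63 and against shCtr at 0.47. With TGFB3 the level was lower by at least 0.85 log2, while the measured values gave a difference of -1.22. WFDC2 (HE4), a further WAP domain protein, read between 4.18 and 4.37 on the 5 arrays, below every floor.

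CFB encodes factor B, the serine protease of the alternative complement pathway, and C3 the protein that this pathway cleaves. CFB read 5.54 in LNRII with vehicle, 6.58 with TGFB3, 5.03 with shCtr, 6.06 with shFOXA1 and 5.88 with LY2157299 added. It was detected on every array, and the treated and knockdown arrays lay above the control array of their own line. TGFB3 gave 2.06-fold and knockdown 2.04-fold, both just past the threshold. LY2157299 against shFOXA1 stood at -0.18 and against shCtr at 0.85. The C3 probes lay between 4.19 and 4.38 on all arrays, so no level above background was seen for the substrate of factor B.

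Of the 6 members measured with TGFB3, 4 were at least 2-fold higher (SAA1, SERPINA3, ORM1, CFB) and 0 lower. Of all 10711 genes, 1.87% were higher and 1.16% lower. After knockdown 6 of 8 measured members were higher (LCN2, SAA1, PI3, SLPI, SERPINA3, CFB) and 0 lower, where 1.11% of 11132 genes were higher and 0.377% lower. These contrasts were known when the members were picked, so nothing is read from the shares. The median difference of the measured members was 1.02 with TGFB3 and 1.44 after knockdown, and that of all genes 0 and -0.01. After knockdown CFB (1.03) was the member past 2-fold that lay nearest the threshold. Short of 2-fold were SAA2, with a bound of 0.32 and a measured difference of 0.68, and ORM1, with -0.48 and -0.63. Some markers of other cell types lay higher on the same arrays, short of 2-fold. CD68, the leukocyte marker detected on every array, read 7.74 in LNRII with vehicle, 8.44 with TGFB3, 7.95 with shCtr, 8.79 with shFOXA1 and 8.43 with LY2157299 added, a difference of 0.70 with TGFB3 and 0.83 after knockdown. The linear levels of the 8 leukocyte markers summed to 360.2, 491.8, 396.7, 594.1 and 494.6 in that order. No other leukocyte marker was detected on the arrays of these comparisons. The basal markers KRT14 and DSC3 stood at 0.61 and 0.42 after knockdown, DSC3 stood at 0.14 with TGFB3, and KRT5 was detected on no array. The 3 named basal markers summed to 187.5, 201.6, 96.4, 128.8 and 103.6 over the arrays in the same order. The part of these markers' cell types in the members' differences was not tested. SERPINA3, SAA1 and CFB were past 2-fold in both comparisons. SAA1 with TGFB3 (1.00) and CFB in both (1.04 and 1.03) lay right at the threshold. The comparisons share no array, but their arrays were normalized together. Both were in view when the members were picked, so nothing is read from the overlap. LCN2 and SLPI lay on opposite sides of 0 in the TGFB3 and knockdown comparisons, and so did ORM1 the other way round. Without background correction, SERPINA3 alone stayed past 2-fold with TGFB3, and LCN2, PI3 and SERPINA3 did after knockdown. Adding 50 in place of 16 to the corrected intensities left SERPINA3 and ORM1 with TGFB3, and LCN2, SAA1, PI3 and SERPINA3 after knockdown.

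**Figure D2:**
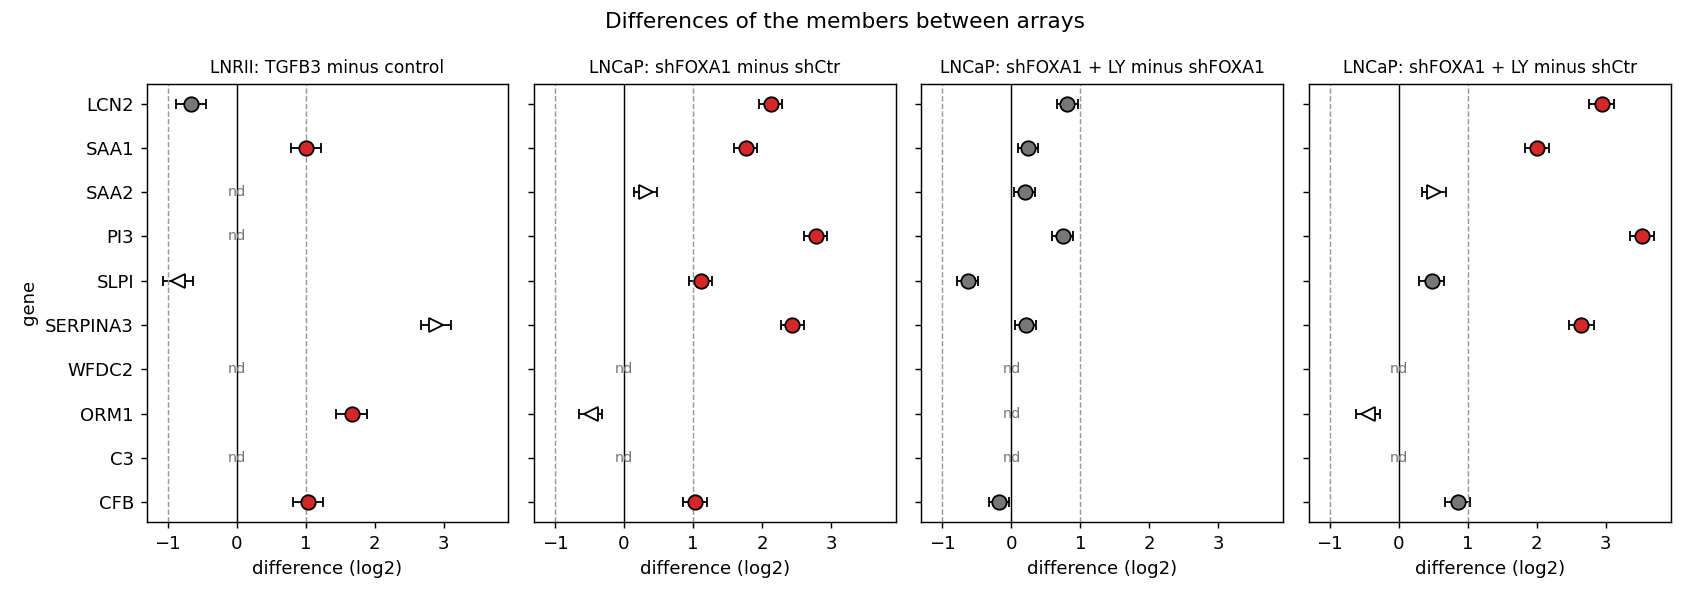
Log2 differences of each gene in 4 comparisons, with bars of 1 probe SD. Open triangles are bounds against the detection floor, nd marks genes detected on neither array, and dashed lines mark 2-fold. With LY2157299 against shFOXA1 no member reaches 2-fold, and LCN2 and PI3 lie highest.

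With LY2157299 against shCtr, 7 of 8 measured members lay above 0, where 48.3% of all genes did. SAA2 among them was not detected with shCtr. ORM1, not detected with LY2157299, stood at -0.45 or lower. Of 7 members measured with LY2157299 against shFOXA1, 0 were 2-fold higher and 0 lower, where 0.0545% of 11002 genes were higher and 0.209% lower. LCN2, PI3, SAA1, SERPINA3 and SAA2 lay above 0 and SLPI and CFB below, with a median of 0.21 against 0.00 for all genes. LCN2, PI3 and SLPI differed by more than 4 probe SDs, and SAA1, SAA2, SERPINA3 and CFB by less than 2. Against shCtr, 4 of 8 measured members were higher (LCN2, SAA1, PI3, SERPINA3) and 0 lower, where 0.917% of 11019 genes were higher and 0.517% lower. The knockdown comparison and both comparisons of LY2157299 share arrays, so they are not separate readings.

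**Figure D3:**
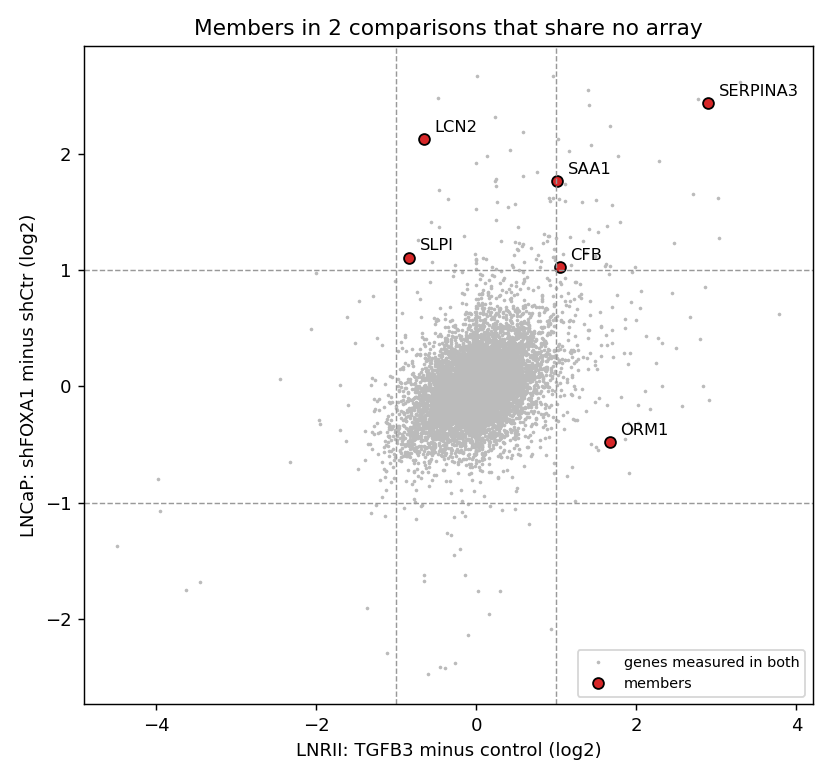
Log2 difference with TGFB3 in LNRII (horizontal) against that after FOXA1 knockdown in LNCaP (vertical) for every gene measured in both, members in red, dashed lines at 2-fold. SERPINA3 lies far to the upper right, LCN2 and SLPI to the upper left and ORM1 to the lower right.

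In the untreated lines, 7 members were measured and SERPINA3 alone was past 2-fold, lower in LNRII with vehicle than in LNCaP with shCtr. Of 10847 genes, 2.18% were higher in LNRII and 3.07% lower. The groups differ by receptor and hairpin, and their labels read 3 days and day 10, with the start of the count not given. Vehicle is given for LNRII and not stated for shCtr. The parts of these cannot be told apart. LCN2 stood at 0.78 and CFB at 0.51 on the LNRII side, and PI3 at -0.66 or lower. ORM1 differed by -0.07, less than the probe SD.

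Related genes were read from lists drawn up by function, with earlier results of these same arrays already known. Their counts stand beside the 1.87% (TGFB3) and 1.11% (knockdown) of all genes that were higher. As with the members, the counts are a description and nothing is read from these shares. Of 18 other acute phase genes, 3 were measured with TGFB3 and 4 after knockdown. ORM2 was at least 2.19-fold higher with TGFB3, and LRG1, a glycoprotein that binds cytochrome c, stood at 0.99 after knockdown and -0.27 with TGFB3. Of 7 plasma proteins whose synthesis falls in the acute phase, 2 were measured with TGFB3 and 3 after knockdown, with 0 past 2-fold and medians of -0.22 and 0.05. Of 33 other complement genes, 5 were measured with TGFB3 and 3 after knockdown, and 0 were higher or lower in either. The complement shields CD59 and CD55 stood at 0.05 and -0.20 (or lower) after knockdown. Among 31 other serpins, SERPINE2, which inhibits thrombin and urokinase, and SERPINB7 were 2.28-fold and 2.13-fold higher after knockdown, 2 of 7 measured. With TGFB3 SERPINI1 (neuroserpin) was 2.16-fold higher, 1 of 5 measured. Of the WAP, Kunitz, Kazal, cystatin and TIMP inhibitors, 0 of 9 with TGFB3 and 0 of 8 after knockdown were past 2-fold, with TIMP2 at 0.96 and 0.77.

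ELANE, the neutrophil elastase that PI3 and SLPI block, was detected on no array. Among receptors and partners, ANXA2, a membrane protein that binds SLPI, was at least 2.86-fold higher with TGFB3 and 2.51-fold higher after knockdown. GRN, progranulin, which SLPI shields from elastase, was 2.24-fold higher with TGFB3 and stood at 0.51 after knockdown. SLC22A17, a receptor for lipocalin 2, was measured on all arrays between 6.87 and 7.32.

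Of 25 genes of the IL-6, STAT3 and C/EBP list, 13 were measured with TGFB3, and STAT3 was 2.25-fold higher while CEBPG stood at -0.95 and JAK1 at -0.81. After knockdown 0 of 12 were past 2-fold, and IL6ST, the shared receptor chain gp130, stood at 0.67. In the IL-1, IL-17 and NF-kB list, 21 of 27 measured genes lay above 0 with TGFB3 and 22 of 25 after knockdown, with medians of 0.44 and 0.20. These are 77.8% and 88%. Of all measured genes, 47.7% lay above 0 with TGFB3 and 47.3% after knockdown, where bounds set to 0 count as not above. Over the other lists the share ran from 20% (other complement) to 84.6% (IL-6, STAT3 and C/EBP) with TGFB3. After knockdown it ran from 33.3% (other complement) to 88.9% (epithelial defence). Luminal prostate markers gave 87.5% with TGFB3 and 50% after knockdown. Nothing is read from these shares. In the IL-1, IL-17 and NF-kB list 1 gene was past 2-fold in each comparison. TRAF3IP2, the adaptor of the IL-17 receptor, was 2.46-fold higher with TGFB3 and stood at 0.88 after knockdown. NFKBIZ, a nuclear IkB protein that takes part in induction of LCN2, stood at 0.90 with TGFB3 and was 2.45-fold higher after knockdown. TNF stood at 0.90 and 0.91. With LY2157299 against shFOXA1, 0 of 26 were past 2-fold and the median was -0.05. There the antagonist IL1RN stood at -0.79.

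Of 9 secreted epithelial defence genes measured after knockdown, 4 were higher, against 1.11% of all genes: S100A9 (8.85-fold) and S100A8 (at least 2.81-fold), the subunits of calprotectin, PGLYRP2, an amidase that cleaves peptidoglycan (5.22-fold), and the defensin DEFB4A (2.89-fold). S100A9 read 4.81 with shCtr, 7.96 with shFOXA1 and 8.19 with LY2157299 added. PGLYRP2 read 6.23, 8.61 and 7.67 on the same arrays, so LY2157299 against shFOXA1 stood at -0.94 for it. With TGFB3, 0 of 3 measured genes of this list were past 2-fold. With LY2157299 against shFOXA1, 0 measured genes of any of the 9 lists were past 2-fold, and the list medians lay between -0.21 and 0.17.

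**Figure D4:**
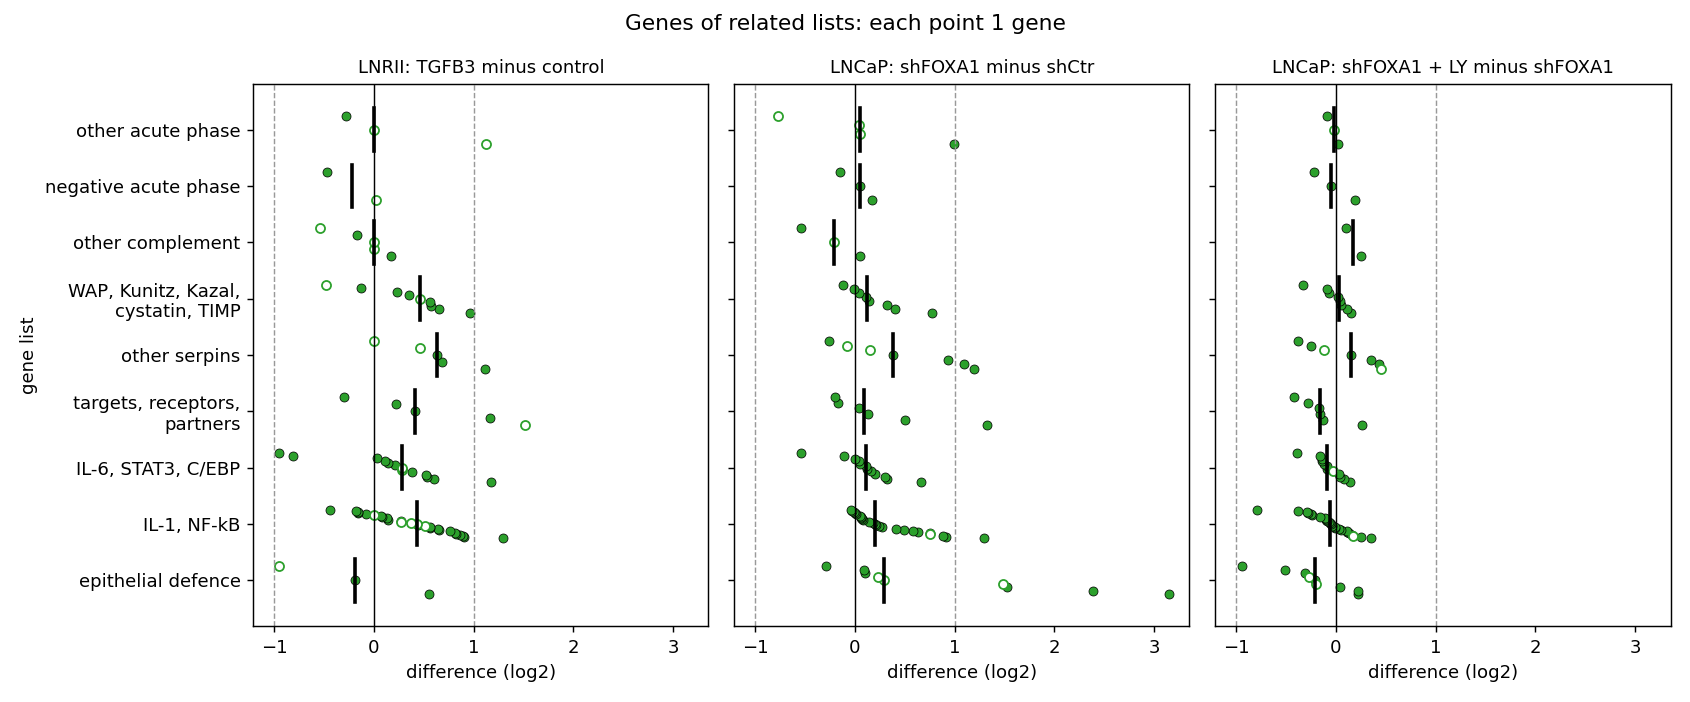
Log2 differences of the measured genes of 9 related lists in 3 comparisons. Each point is 1 gene, open points are bounds against the floor, black bars are list medians and dashed lines mark 2-fold. After knockdown 4 epithelial defence genes lie beyond 2-fold, and with LY2157299 against shFOXA1 no gene of any list does.

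For each detected member, the genes of most similar pattern were those at the smallest Euclidean distance over the 5 arrays after centring each gene on its mean. For PI3 they were S100A9 (distance 1.10), RTN1, RGS4, CXCL8 and S1PR3. CXCL8, a neutrophil chemokine, read 4.51 (below the floor) in LNRII with vehicle, 5.26 with TGFB3, 7.61 with shCtr, 9.38 with shFOXA1 and 10.42 with LY2157299, the same order as PI3 on the LNCaP arrays. For SERPINA3 they were MAF (0.74), PIP (0.82), SNAI2, SGK1 and S1PR3. For LCN2 they were KRT6C (0.92), ERCC4, GAS1, CCL8 and CCDC85A. For SAA1 the nearest was TMEM158 (0.31), followed by AMOT, SDCBP2, TLE1 and AP1S2. SLPI had ACOT2 (0.66), FRAS1, PLA2G2A, DUSP2 and PDLIM5. ORM1 was followed by TSC22D3 (0.37), a glucocorticoid-induced leucine zipper protein, then MMD, VWF, SNHG11 and SLC2A12. For CFB the nearest was ELF1 (0.18), then KCNMB4, SVIL, RIT2 and VCX3A. SAA2, whose levels were close to the floor, had TAF15 (0.12), CERS6, ENTREP2, SKAP2 and CWH43. No member was among the 5 nearest genes of another member.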

How the data were processed

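RNA of 5 cultures was hybridised to Illumina bead arrays, 1 array each. The scanner table was deposited as mean bead intensity per probe with a detection p-value, not normalized per the file headers, and GenomeStudio is the tool that the submitters' processing notes name. The authors also deposited a table of processed intensity values, for which no method was stated. These ranked probes as the scanner table did, and it was used as an alternative.

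Normexp background correction with negative controls inferred from the detection column, addition of 16, quantile normalization over 5 arrays and log2 were run with neqc of limma 3.58.1 in R 4.3.3. The rest used Python 3.11.15 with pandas 2.3.3, numpy 2.4.6 and matplotlib 3.10.9. Each gene was read by its probe of highest mean among those detected on at least 1 array (11808 genes), and genes undetected on both arrays of a comparison were left out of it. A bound that gave no direction was set to 0. Called means at least 2-fold. With 1 array per group no test was made, and precision is limited by that number of arrays. Of the probes, 30107 have 1 symbol, 8 have several and 17191 have none. Entrez identifiers of 30068 probes, and of all 10 members, were found in the RefSeq table, and 0 member symbols needed an update. The steps were tested on simulated data in which only probes well above background were changed, so levels near the floor were not covered. The 10 members, the lists and the naming rule were chosen with earlier results of these data known. Named are all members, list genes at least 2-fold apart or among the 3 largest differences of a list, and the 5 genes nearest to each member. The 9 alternatives concern background, offset, normalization, source table, detection threshold, bounds and choice of probe.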

Additional observations from a re-analysis of the deposited data

How the results depend on the processing

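Of 309 single member differences recomputed under the 9 alternatives (8 between the lines), 250 moved by less than 1 probe SD, 59 by more, and 0 differences past 2-fold changed sign. Part of the 250 was fixed in advance. The alternatives for detection threshold and bounds cannot move a member detected on both arrays, and the mean over detected probes can move only SAA1. The count is therefore no measure of robustness. Without background correction, the members past 2-fold numbered 1 higher in place of 4 with TGFB3, 3 in place of 6 after knockdown and 0 lower in place of 1 between the lines. Over all genes, the counts there were 86 higher and 31 lower (main 200 and 124) with TGFB3, 49 and 15 (124 and 42) after knockdown, 1 and 5 (6 and 23) for LY2157299 against shFOXA1, 36 and 19 (101 and 57) for LY2157299 against shCtr, and 59 and 127 (236 and 333) between the lines. An offset of 50 gave 2 members higher with TGFB3. It gave 120 and 53 genes with TGFB3, 68 and 22 after knockdown, 2 and 12 and 53 and 27 for LY2157299 against shFOXA1 and against shCtr, and 112 and 198 between the lines. Both settings shrink differences of dim probes by construction. A detection p below 0.05, and measured values with no bound, each gave 1 member lower with TGFB3 (SLPI) and 2 lower between the lines (PI3, SERPINA3). Of all genes, 1.14% and 1.49% in that order were lower with TGFB3, and 3.09% and 3.78% between the lines. With genes detected on both arrays, 0 members were lower between the lines, where 3.03% of all genes were. That setting leaves SERPINA3 out there and with TGFB3, because it was not detected in LNRII with vehicle. With TGFB3 it gave 3 members higher (SAA1, ORM1, CFB), where 1.92% of all genes were. SAA1 with TGFB3 (1.00) kept its side of 2-fold in 3 of 9 alternatives, with a lowest value of 0.48. LCN2, PI3 and SERPINA3 kept theirs after knockdown in all 9. The share of calls that were higher with TGFB3 was 61.7% in the main setting and 73.5% without background correction. No paired analysis was possible because each group has 1 array. The signal over background limits SAA2 on all arrays, ORM1 on all but the TGFB3 array, and PI3 and SLPI on both LNRII arrays. It also limits SAA1 and CFB on the LNRII vehicle and shCtr arrays, and SERPINA3 on the LNRII vehicle array. Levels there lay near or below the floor. Without background correction, CFB stood at 0.50 with TGFB3 and 0.40 after knockdown.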
